A study of Mus musculus with 550 samples.

Results

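S100a6, Fxyd2, Mfap2, Serpinf1, Nrep, Ptn, Clu, Fst and Ccn1 are 9 genes, of 55228 in the count table, that were picked by name because their level was higher at day 9 than at day 3 of embryoid body (EB) differentiation. Among genes detected in enough cells of both library batches, the 5 genes from S100a6 to Nrep had the largest ratios between the days in WT cells, and Ptn had the largest in cells labelled 3AKO. That ratio is therefore given as a description, and nothing is read from it. The day 9 levels of WT and 3AKO entered the choice, so a ratio of 3BKO to either starts from a level that was chosen to be high and is a description as well. Levels were measured by Smart-seq2, which sequences full-length cDNA from single sorted cells, in E14 mouse embryonic stem cells of strain 129/Ola that had been left to aggregate without LIF. The groups are WT, Dnmt3a -/- (3AKO) and Dnmt3b -/- (3BKO) EBs, each at day 3 and at day 9. DNMT3A and DNMT3B are the enzymes that place new methyl groups on the CpG dinucleotides of DNA, and each mutant line lacks the enzyme it is named for in every cell.

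Each of the 6 groups came from pooled EBs and counts here as 1 sample. The study made more than 1 knockout clone of each enzyme, and the labels do not say which clone a cell comes from, so genotype and clone cannot be told apart. No difference below carries a test, and all intervals (95%) cover counting error only. Of 550 cells, 486 passed the filter of at least 50000 reads, at least 2000 genes and at most 50% mitochondrial reads. At day 9 these were 89 WT, 88 3AKO and 67 3BKO cells, from 97.8%, 94.6% and 72.04% of the cells of each group, with a median of 363652, 237448 and 336187 reads. Every group was split into library batch 1 and library batch 2, which held different columns of the plates. The batches of a group shared a plate, except in the mutants at day 3. There plate 210 held batch 1 labelled 3BKO and batch 2 labelled 3AKO. Plate 211 held batch 1 labelled 3AKO and batch 2 labelled 3BKO. Levels and genotype ratios of the members are given for both batches. Shares of cells and levels per kilobase pool the batches unless stated. At day 9 each genotype had a plate of its own, so plate and genotype cannot be told apart. Dnmt3a was at 26.1 and 23.9 CPM (reads per 1e6 reads) in the 3AKO libraries of day 9, against 177 and 144 CPM in WT. Dnmt3b was at 15.9 and 16.8 CPM in 3BKO, against 155 and 189 CPM in WT. Dnmt3a was below WT in 3BKO of day 9 as well, at 84.1 and 44.8 CPM. At day 3 the batch 2 library labelled 3AKO had 335 CPM of Dnmt3a and that labelled 3BKO had 12.8 CPM, against 267 CPM in WT. Dnmt3b was less clear at day 3, at 167 CPM in the batch 1 and 185 CPM in the batch 2 library labelled 3BKO, against 600 and 523 CPM in WT and 261 and 85.1 CPM under the label 3AKO. The mutant labels of the 2 batch 2 libraries are in doubt, and day 3 values of the mutants are therefore also given for batch 1 alone. In batch 1 Dnmt3a was low under the label 3AKO (25.8 CPM), but Dnmt3b under the label 3BKO stood above its 15.9 CPM of day 9.

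The members act mostly outside the cell or at its surface. S100A6 is a small calcium-binding protein of the S100 family, and FXYD2 is the gamma subunit that modulates the sodium-potassium pump. MFAP2 (also called MAGP-1) is part of the microfibrils of the extracellular matrix, SERPINF1 is the secreted factor PEDF, and CCN1 (CYR61) is a matrix protein whose gene is a known target of YAP and TEAD. PTN (pleiotrophin) is a heparin-binding growth factor related to midkine, FST (follistatin) binds and blocks activins, and CLU (clusterin) is a secreted chaperone. NREP is an intracellular protein first described in regenerating nerve. FXYD2 and NREP are thus neither secreted nor calcium-binding. None of the members is a marker of a single germ layer, and several are typical of mesenchyme, endoderm or neural tissue.

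The positions are those of GRCm38 in GENCODE vM21. S100a6 is at chromosome 3, 90612882 to 90624181, and Ccn1 on the same chromosome at 145646976 to 145649981. Mfap2 is at chromosome 4, 141010418 to 141015984, Ptn at chromosome 6, 36714929 to 36810220, and Fxyd2 at chromosome 9, 45399669 to 45410278. Serpinf1 is at chromosome 11, 75409769 to 75422701, Fst at chromosome 13, 114452290 to 114458951, and Clu at chromosome 14, 65968483 to 65981547. In this annotation the exons of Fst overlap those of Gm47040 on the opposite strand, and reads of that pair cannot be told apart because no strand setting is stated. The exons of the other 8 members overlap no other gene.

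Of the members with an entry in the promoter table, S100a6 was kept in 3BKO in the values below. Mfap2, Ptn and Ccn1 were low or without a read there. Fxyd2, the member with the highest ratio of 3BKO to WT, had no entry, nor had Fst. The promoters (250 bases before to 50 after the start) of S100a6, Mfap2, Ptn and Ccn1 are shown. They are RefSeq sequences of GRCm38.p6, 5′ to 3′ on the strand of the gene, and the capitals mark each CpG, the dinucleotide that the deleted enzymes methylate. S100a6 is at chr3:90612644-90612943 (plus strand), Mfap2, at the first of its listed starts, at chr4:141010431-141010730 (plus strand), Ptn at chr6:36810130-36810429 (minus strand) and Ccn1 at chr3:145649936-145650235 (minus strand).
S100a6: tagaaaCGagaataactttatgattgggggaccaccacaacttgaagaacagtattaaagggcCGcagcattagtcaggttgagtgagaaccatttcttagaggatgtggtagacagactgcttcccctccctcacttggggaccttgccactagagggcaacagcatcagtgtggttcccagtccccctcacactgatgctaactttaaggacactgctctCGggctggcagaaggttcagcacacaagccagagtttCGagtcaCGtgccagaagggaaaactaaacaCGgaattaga
Mfap2: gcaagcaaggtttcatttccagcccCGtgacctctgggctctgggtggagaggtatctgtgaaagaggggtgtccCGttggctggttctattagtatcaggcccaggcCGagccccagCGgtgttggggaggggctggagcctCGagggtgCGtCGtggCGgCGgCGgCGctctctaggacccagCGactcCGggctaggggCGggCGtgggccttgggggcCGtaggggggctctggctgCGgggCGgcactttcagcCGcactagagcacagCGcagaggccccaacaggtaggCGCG
Ptn: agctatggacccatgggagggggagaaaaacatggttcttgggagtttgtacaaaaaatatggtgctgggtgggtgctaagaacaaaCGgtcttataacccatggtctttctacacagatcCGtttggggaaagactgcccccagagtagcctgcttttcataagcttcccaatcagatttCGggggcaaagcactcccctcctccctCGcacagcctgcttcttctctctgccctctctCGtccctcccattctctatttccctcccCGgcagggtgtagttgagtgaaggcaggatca
Ccn1: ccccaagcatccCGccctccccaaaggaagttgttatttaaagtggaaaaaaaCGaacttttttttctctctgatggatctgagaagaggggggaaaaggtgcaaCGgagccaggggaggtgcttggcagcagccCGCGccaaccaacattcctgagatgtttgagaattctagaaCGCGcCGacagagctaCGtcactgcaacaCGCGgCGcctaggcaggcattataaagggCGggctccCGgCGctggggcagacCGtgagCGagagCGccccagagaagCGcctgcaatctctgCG

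The printed Mfap2 and Ccn1 windows had 22 and 20 CpGs in 300 bases, while S100a6, Ptn and the other listed start of Mfap2 had 6 each and Serpinf1 had 3. Over all 32851 promoters of the table the median was 7, with quartiles of 3 and 20. On both strands, the TATA box TATAAA was found in the Ccn1 window 25 bases before the start, and in 13.6% of all promoters. The TEAD letters GGAATG were found 103 bases before the Ccn1 start on its minus strand and 176 bases before the other listed start of Mfap2, and in 14.7% of all promoters. The AP-1 letters TGANTCA were in none of the windows of these 5 genes and in 7.81% of all promoters. The GC box GGGCGG was found in the Mfap2 and Ccn1 windows and in 35.7% of all promoters. These are matches of letters, and methylation or binding at these windows was not measured here. Fxyd2, Nrep, Clu and Fst had no entry in the promoter table.

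At day 3 all 9 members were low in all 6 libraries. S100a6 lay between 0.743 and 3.82 CPM (median 1.84), Fxyd2 between 0 and 2.99 CPM (median 1.26) and Mfap2 between 0.203 and 2.48 CPM (median 1.26). Clu was the member with the most reads at day 3, at 5.07 to 17.7 CPM (median 7.66), followed by Fst at 1.36 to 11.2 CPM (median 6.49). Thinned to 50000 reads per cell so that depth was equal, the median member had a read in 6.33% of WT cells at day 3, in 7.23% of cells labelled 3AKO and in 5% of cells labelled 3BKO. At day 9 this median share stood at 16.9% for WT, 22.7% for 3AKO and 8.96% for 3BKO.

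**Figure D1:**
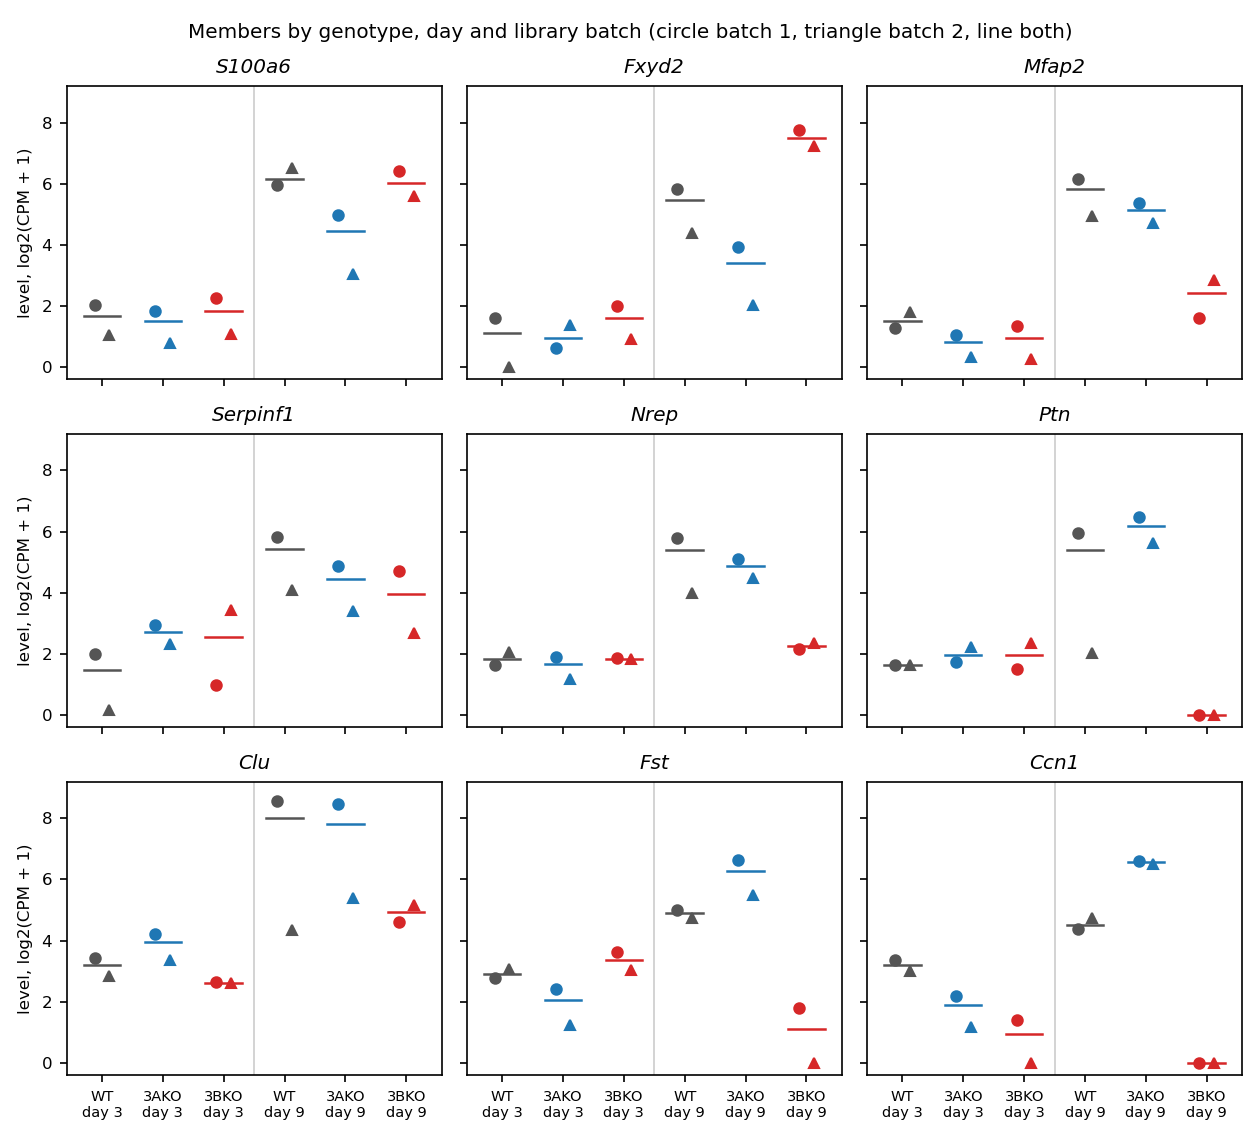
Level of each member, as log2(CPM + 1) of summed reads, in the WT (gray), 3AKO (blue) and 3BKO (red) groups at day 3 and day 9, with a circle for library batch 1, a triangle for batch 2 and a line for both together. At day 9 S100a6 and Fxyd2 are high in both 3BKO libraries, whereas Mfap2, Nrep, Ptn, Fst and Ccn1 lie below both WT libraries there.

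S100a6 and Fxyd2 were the members with high levels in 3BKO. S100a6 was at 60.7 and 91.4 CPM in the WT libraries of day 9 (batch 1, then batch 2), at 30.9 and 7.27 CPM in 3AKO and at 84.1 and 47.3 CPM in 3BKO. The 3AKO libraries lay below all the others, and the WT and 3BKO libraries overlapped. The log2 ratio of S100a6 to WT (of CPM + 1, as for all log2 ratios here) was -1.71 in 3AKO, at -0.95 in batch 1 and -3.48 in batch 2. In 3BKO it was -0.14 (-0.26 to -0.02), with opposite signs in the batches, 0.47 and -0.93. A S100a6 read was present in 60.7% of WT cells (49.7 to 70.9%, after thinning) and in 58.2% of 3BKO cells (45.5 to 70.2%), against 23.9% of 3AKO cells (15.4 to 34.1%). In WT this share was 53.3% in batch 1 and 75.9% in batch 2.

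Fxyd2 separated the genotypes in both directions. It was at 55.6 and 20.1 CPM in the WT libraries, at 14.3 and 3.13 CPM in 3AKO and at 215 and 151 CPM in 3BKO, and the 3 genotypes did not overlap. Its log2 ratio to WT was 2.04 in 3BKO (1.93 to 2.15, with 1.94 and 2.85 in the batches) and -2.06 in 3AKO (-2.30 to -1.81, with -1.88 and -2.35 in the batches). The 3BKO group thus had 4.17 times the Fxyd2 CPM of WT and 18.7 times those of 3AKO. The share of cells with a read was 80.6% in 3BKO (69.1 to 89.2%), 20.2% in WT (12.4 to 30.1%) and 9.09% in 3AKO (4.01 to 17.1%). In the cells with any read its median level was 185 CPM in 3BKO, 106 CPM in WT and 33.6 CPM in 3AKO, so both more cells had it and the cells that had it held more.

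Mfap2 and Nrep were low in 3BKO. Mfap2 was at 69.7 and 30.1 CPM in WT, at 40.6 and 25.4 CPM in 3AKO and at 2.07 and 6.28 CPM in 3BKO. Nrep was at 54.7 and 15.1 CPM in WT, at 33.5 and 21.1 CPM in 3AKO and at 3.42 and 4.06 CPM in 3BKO. For both genes the 3BKO libraries lay below the others, and the WT and 3AKO libraries overlapped. The log2 ratio of 3BKO to WT was -3.42 for Mfap2 (-3.69 to -3.16, with -4.53 and -2.10 in the batches). For Nrep, at chromosome 18, 33437019 to 33464029, it was -3.14 (-3.43 to -2.86, with -3.66 and -1.67 in the batches). The share of cells with a Mfap2 read was 21.3% for WT (13.4 to 31.3%), 20.5% for 3AKO (12.6 to 30.4%) and 5.97% for 3BKO (1.65 to 14.6%). For Nrep the WT share was 23.6% (15.2 to 33.8%), the 3AKO share 25% (16.4 to 35.4%) and the 3BKO share 8.96% (3.36 to 18.5%), at 13.04% in batch 1 and 0% in batch 2.

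Ptn and Ccn1 had no read in any of the 67 3BKO cells at day 9. By 3 counts of 67 this allows a share of cells with a read of up to 4.48% (upper Clopper-Pearson limit 5.36%), and it sets no limit on the share of cells that express the gene below detection. Ptn was at 60.3 and 3.10 CPM in WT and at 88.9 and 48.5 CPM in 3AKO. Against 3 counts over the group, Ptn was at least 411-fold lower in 3BKO than in WT and at least 728-fold lower than in 3AKO. These bounds, and those of Ccn1 below, count reads as independent. They leave out that few cells held the reads (15 of 89 in WT for Ptn), so they set no limit for another draw of cells. The bounds also depended on the library. Against 3 counts per library, the bound to WT was 282-fold in batch 1 and 16.8-fold in batch 2, and that to 3AKO was 416-fold and 263-fold. Without the WT cell with the most Ptn the bound to WT over the group was 246-fold. The spread of Ptn within WT was wide, since 40.7% of its reads came from 1 cell, and the 3AKO and WT libraries overlapped. It had a read in 22.7% of 3AKO cells (14.5 to 32.9%) and in 12.4% of WT cells (6.33 to 21.04%). Ccn1, the YAP and TEAD target, was at 19.6 and 25.5 CPM in WT and at 95.2 and 90.5 CPM in 3AKO, which did not overlap. In 3AKO 1 cell held 43.5% of the Ccn1 reads of batch 1 and another 70.98% of those of batch 2. Without the cell with the most Ccn1 in each library the levels were 54.9 and 27.5 CPM in 3AKO and 12.02 and 17.5 CPM in WT. Its log2 ratio of 3AKO to WT was 2.06 (1.90 to 2.22, with 2.22 and 1.79 in the batches). In 3BKO it was at least 219-fold lower than in WT and at least 942-fold lower than in 3AKO, and per library at least 91.9-fold and 138-fold lower than in WT and 446-fold and 490-fold lower than in 3AKO. The shares of cells with a Ccn1 read were closer, 17.05% in 3AKO (9.87 to 26.6%) and 12.4% in WT (6.33 to 21.04%), while the median level in the cells with a read was 203 and 91.5 CPM. In the batch 1 library labelled 3BKO at day 3, Ccn1 was at 1.66 CPM and Ptn at 1.82 CPM.

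Fst, the activin antagonist, followed the order 3AKO, WT, 3BKO as well. It was at 98.3 and 43.4 CPM in 3AKO, at 30.7 and 25.7 CPM in WT and at 2.49 and 0 CPM in 3BKO, with no overlap between the genotypes. The log2 ratio to WT was 1.35 in 3AKO (1.65 and 0.74 in the batches) and -3.80 in 3BKO (-4.14 to -3.44, with -3.18 and -4.74 in the batches). At day 3 the batch 1 library labelled 3BKO had 11.2 CPM, so Fst stood below that value in both 3BKO libraries of day 9. The share of cells with a Fst read was 23.9% for 3AKO (15.4 to 34.1%), 14.6% for WT (8.01 to 23.7%) and 5.97% for 3BKO (1.65 to 14.6%).

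Serpinf1 and Clu did not follow either pattern in the share of cells. Serpinf1 was at 55.9 and 16.1 CPM in WT, at 28.5 and 9.49 CPM in 3AKO and at 25.1 and 5.48 CPM in 3BKO, and all 3 genotypes overlapped. The ratio of 3AKO to WT was -0.95 and -0.71 in the batches, on the log2 scale, and that of 3BKO was -1.47 (-1.68 to -1.28, with -1.13 and -1.40 in the batches), while a read was found in 16.9% of the WT, 15.9% of the 3AKO and 17.9% of the 3BKO cells. Clu was at 377 and 19.2 CPM in WT, at 350 and 41.1 CPM in 3AKO and at 23.5 and 34.5 CPM in 3BKO. The high batch 1 values rested on single cells, since 94.9% of the 8862 WT reads and 84.6% of the 5294 3AKO reads of Clu came from 1 cell each. Without the cell with the most reads in each group, Clu was at 13.1 CPM in WT, 34.5 CPM in 3AKO and 25.9 CPM in 3BKO, and the log2 ratio of 3BKO to WT went from -3.07 to 0.93. The share of cells with a Clu read was 11.2% in WT (5.52 to 19.7%) and 23.9% in both 3AKO (15.4 to 34.1%) and 3BKO (14.3 to 35.9%). No direction between genotypes is therefore given for Clu.

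**Figure D2:**
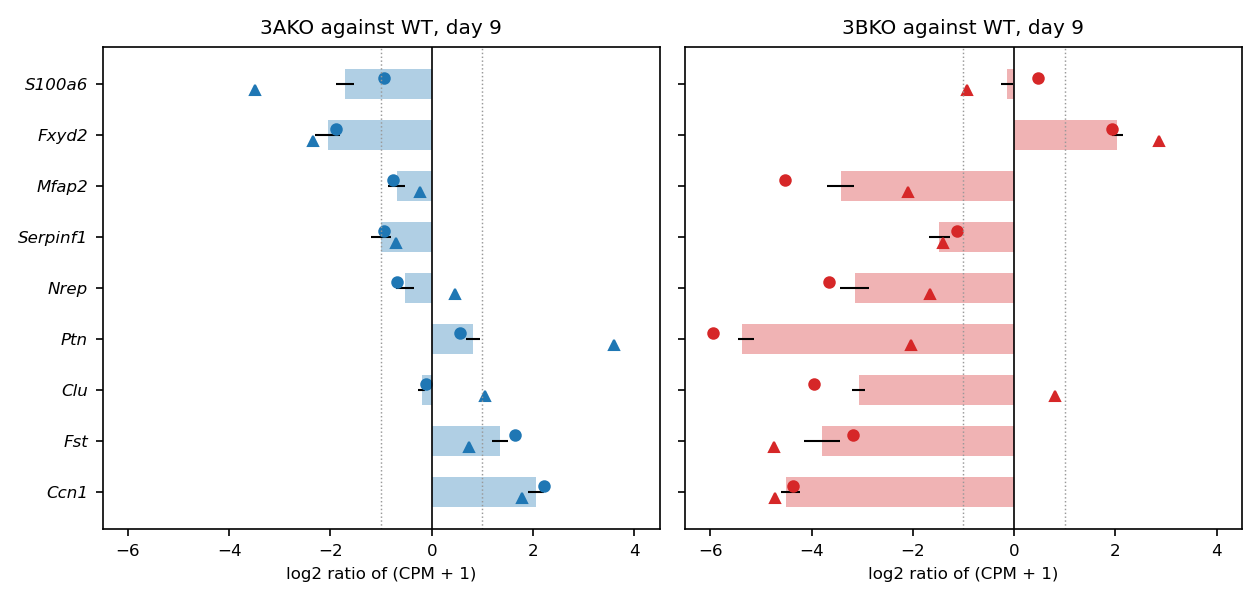
Log2 ratio of (CPM + 1) to WT at day 9 for each member, in 3AKO (left) and 3BKO (right), with a bar for both batches together, a black line for its 95% counting interval, a circle for batch 1 and a triangle for batch 2. Dotted lines mark a log2 ratio of 1 in either direction. Fxyd2 lies to the right in 3BKO and to the left in 3AKO, and Ptn, Fst and Ccn1 lie the other way round.

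The median log2 ratio over the 9 members at day 9 was -0.52 for 3AKO against WT (-0.69 in batch 1 and 0.46 in batch 2), beside -0.10 over the 9201 genes detected in at least 20% of cells of either group in each batch. For 3BKO against WT it was -3.14 (-3.66 and -1.67), beside -0.08 over 9235 detected genes, and it stayed -3.14 with Ptn and Ccn1 at their bounds. The median takes in all 9 members, including Ptn, Fst and Ccn1, which were not detected in enough cells in that comparison, so it and the value over detected genes do not cover genes chosen alike, and nothing is read from the distance between them. For 3BKO against 3AKO it was -2.73 (-3.76 and -1.86), beside -0.0014 over 9152 detected genes. A gene counted as past the fold when it was detected in this way and its log2 ratio reached 1 in the same direction in both batches. In 3AKO against WT, 7 members were detected, of which 0 were past the fold upward (1.07% of all detected genes were) and 1, Fxyd2, downward (1.59% were). In 3BKO against WT, 6 members were detected, of which 1, Fxyd2, was past it upward (2.86% of all genes) and 3, Mfap2, Serpinf1 and Nrep, downward (4.98%). Ptn, Fst and Ccn1 had too few cells with a read for this count, although both batches lay past the fold. In 3BKO against 3AKO, 7 members were detected, with S100a6 and Fxyd2 upward (2 members, against 4.56% of all genes) and Nrep, Ptn and Fst downward (3 members, against 4.91%). These comparisons share their groups with each other and are not independent. Between the days, the comparison that chose the members, 5 of 5 detected members were past the fold upward in WT (5.25% of all detected genes). Under the label 3AKO 4 of 4 were (2.57%), and under the label 3BKO 3 of 4 (6.77%). Nothing is read from these counts.

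In batch 1 alone, which leaves out the libraries whose labels are in doubt, the median log2 ratio of day 9 to day 3 over the members was 4.15 for WT, 4.23 for 3AKO and 0.27 for 3BKO. With both batches it was 3.96, 3.86 and 1.39. The 3BKO members went apart, with Fxyd2 at 5.90 (5.76 in batch 1) and S100a6 at 4.18 (4.14 in batch 1), but Fst at -2.27 (-1.80 in batch 1) and Nrep at 0.40 (0.27 in batch 1).

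Set per kilobase of exon, Clu came first in WT and 3AKO, in each through 1 cell. In WT at day 9 it was Clu (74.05 CPM per kilobase), S100a6 (52.1), Mfap2 (46.3), Serpinf1 (17.9), Ptn (11.9), Fxyd2 (10.8), Ccn1 (10.7), Nrep (10.5) and Fst (6.31). Neighbours in this order overlapped between the batches, except Mfap2 and Serpinf1. Without the cell with the most reads of each gene Clu was at 3.81 CPM per kilobase, the lowest of the 9, and S100a6 (46.6) and Mfap2 (36.2) came first. In 3AKO the order began with Clu (64.6, at 102 and 11.96 in the batches), Ccn1 (46.2, at 47.2 and 44.8) and Mfap2 (28.3, at 33.6 and 21.01). Without the leading cells it began with Ccn1 (33.6), Mfap2 (20.2) and Ptn (14.6), and Clu was at 10.03. In 3BKO S100a6 (47.1) and Fxyd2 (45.2) came first and overlapped, and the next was Clu at 8.55 CPM per kilobase.

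**Figure D3:**
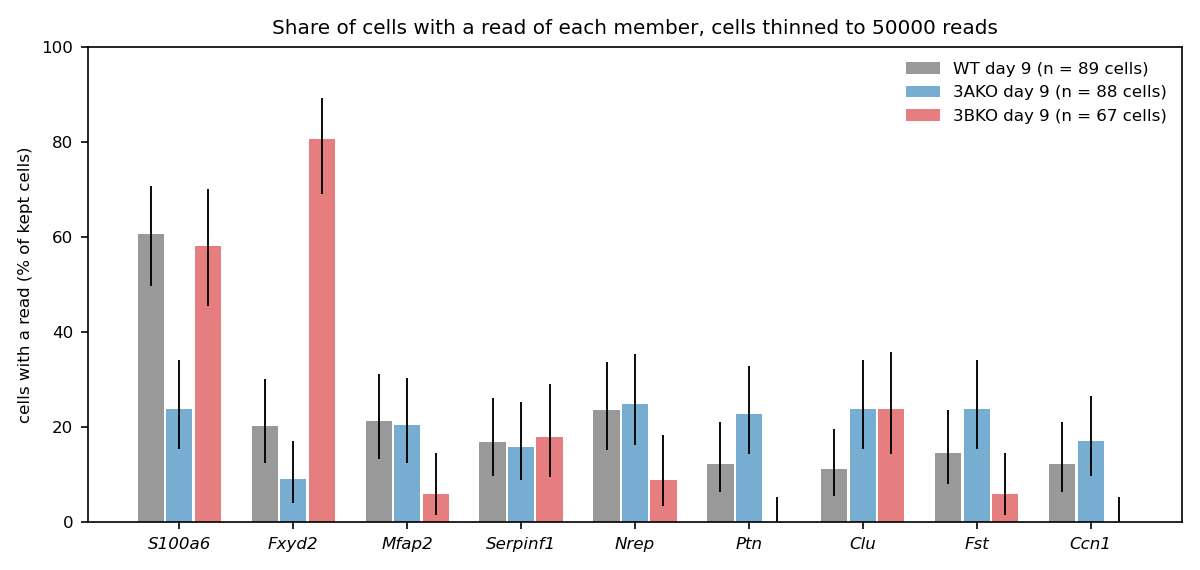
Share of kept cells with a read of each member at day 9 after thinning each cell to 50000 reads, in WT (gray), 3AKO (blue) and 3BKO (red), with 95% Clopper-Pearson intervals. Fxyd2 reaches 80.6% in 3BKO, Ptn and Ccn1 are at 0 there, and Serpinf1 lies between 15.9% and 17.9% in the 3 genotypes.

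Across the cells of day 9 the members fell into pairs that shared cells and pairs that did not. Over all 36 pairs the median Spearman rho of thinned reads was 0.05 in WT (89 cells), 0.02 in 3AKO (88 cells) and 0.03 in 3BKO, where 21 pairs could be computed (67 cells). Over pairs of all genes detected in 20% of cells it was 0.01 in each. A rho of at least 0.3 was found for 6 member pairs in WT, 11 in 3AKO and 1 in 3BKO. Of the pairs of detected genes, 0.715%, 0.720% and 1.35% had it. Not every member was detected in 20% of cells, and the members were picked for higher reads at day 9. Member pairs and pairs of detected genes are thus not chosen alike, and nothing is read from the distance between them. The cells of a group share a plate, and both batches are pooled in these values, which are descriptions without a test.

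Mfap2 and Nrep had the highest rho in WT, 0.61, and 0.62 in 3AKO. They were found together in 13 of 89 WT cells, where the product of their shares gives 4.48 cells, and in 13 of 88 3AKO cells, where it gives 4.5. In WT this rested on batch 1, at 0.82 against 0.11 in batch 2, whereas in 3AKO both batches had it (0.65 and 0.55). Ptn joined them more closely in 3AKO, with a rho of 0.68 to Mfap2 and 0.68 to Nrep, than in WT (0.28 and 0.33). The difference between the genotypes was not tested. Serpinf1 had a rho of 0.41 to Mfap2 and 0.42 to Nrep in 3AKO, and 0.31 and 0.35 in WT. Fst had a rho of 0.51 to Mfap2 and 0.53 to Nrep in 3AKO, and 0.03 and 0.14 in WT. For Ccn1 these were 0.32 and 0.40 in 3AKO, and 0.08 and 0.04 in WT. In 3BKO, where Mfap2 had a read in 4 cells and Nrep in 6, they shared 0 cells. The product of their shares gives 0.36 cells there, so nothing is read from this value.

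S100a6 and Fxyd2 formed another pair, with a rho of 0.45 in 3BKO (0.41 and 0.49 in the batches) and 0.32 in WT (0.33 and 0.47), but 0.03 in 3AKO. In 3BKO 34 of 67 cells had a read of both, where the product of their shares gives 31.4. Clu and Ccn1 had a rho of 0.32 in WT (0.12 and 0.53 in the batches) and 0.19 in 3AKO. They shared 4 WT cells, where the product of their shares gives 1.24. Toward Mfap2, Nrep and Ptn, S100a6 had a rho of -0.22, -0.24 and -0.09 in 3AKO and 0.02, 0.01 and 0.06 in WT. At least 4 of the 9 members were found in 14.6% of WT cells, 21.6% of 3AKO cells and 4.48% of 3BKO cells. None of the 9 was found in 19.1% of WT cells, 25% of 3AKO cells and 5.97% of 3BKO cells. The number of members found in a cell had a rho between -0.10 and 0.19 to its total reads in the 3 groups.

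**Figure D4:**
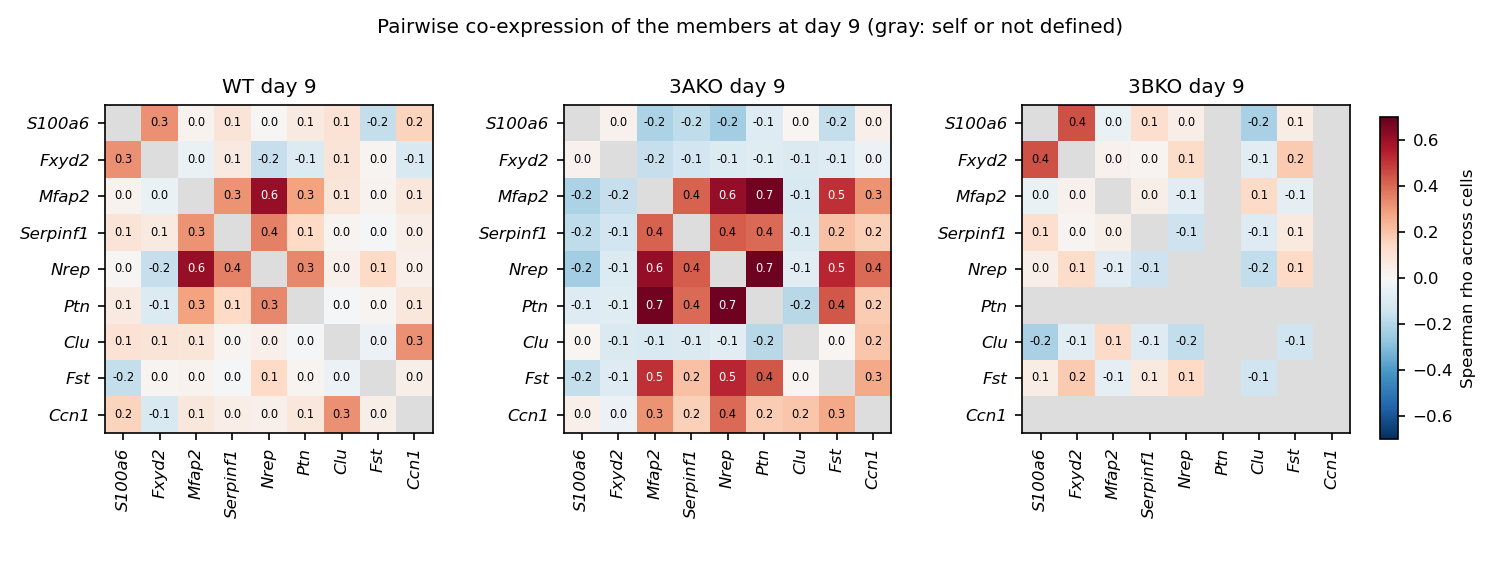
Spearman rho between members across the cells of WT, 3AKO and 3BKO at day 9, on reads thinned to 50000 per cell, from blue (negative) to red (positive), with gray where a gene had no read or is set against itself. The block of Mfap2, Serpinf1, Nrep, Ptn and Fst is red in 3AKO, and the pair S100a6 and Fxyd2 is red in WT and 3BKO.

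Against lists of cell type markers, Nrep, Mfap2 and Ptn were found in cells with low epiblast markers in WT and 3AKO. The rho between a member and the summed reads of 18 epiblast markers was -0.53 for Nrep, -0.39 for Mfap2 and -0.31 for Ptn in WT, and -0.49, -0.43 and -0.46 in 3AKO. Fxyd2 had 0.34 in WT. In 3AKO Ccn1 (-0.36), Serpinf1 (-0.32) and Fst (-0.31) were negative as well, while S100a6, Fxyd2 and Clu were not. In 3BKO Nrep had 0.35 and Mfap2 -0.18, with reads in 6 and 4 cells, and Ptn had no read. In WT, Mfap2 had 0.42 and Serpinf1 0.35 to the 22 meso-endoderm markers, whereas in 3AKO these were -0.02 and -0.10. In 3AKO, Nrep had 0.37, Ptn 0.36 and Mfap2 0.35 to the 22 ectoderm markers, whereas in WT these were -0.02, 0.13 and -0.03. To the 12 mesenchyme markers Nrep, Ptn and Mfap2 had positive values in both groups (0.23, 0.17 and 0.28 in WT, 0.41, 0.34 and 0.28 in 3AKO). They were not alone in WT, where S100a6 had 0.28 and Ccn1 0.21. In 3AKO S100a6 had -0.10 and Ccn1 0.17. Differences between the genotypes in these values were not tested. For the 14 extraembryonic endoderm markers the highest values were those of Ccn1 (0.39) and Clu (0.31) in WT, and for the 12 trophoblast markers that of Clu (0.25) in 3AKO. As sums over cells, the epiblast markers were at 9178 CPM in WT, 9012 CPM in 3AKO and 11782 CPM in 3BKO, so all 3 groups still held cells with epiblast markers at day 9. The mesenchyme markers summed to 29.8 CPM in WT, 166 CPM in 3AKO and 1.58 CPM in 3BKO, with 7 of the 12 at 0 in 3BKO. By batch these sums were 27.7 and 33.6 CPM, 269 and 20.8 CPM, and 1.92 and 1.29 CPM, so both 3BKO libraries were below the others. Of the 3AKO sum 83.5% came from 1 cell, without which it was 27.8 CPM, and the WT sum without its leading cell was 23.2 CPM. Mfap2, Nrep, Ptn, Fst and Ccn1 were low in 3BKO together with this sum, whose part in the members' values was not tested. The 22 meso-endoderm markers summed to 145 CPM in WT (188 and 63.7 in the batches), 114 CPM in 3AKO (85.7 and 153) and 75.3 CPM in 3BKO (91.2 and 61.7), with 9 of the 22 at 0 in 3BKO. A single cell held 52.7% of the WT and 49.4% of the 3AKO sum, and without the leading cell of each group the sums were 69.6, 59.1 and 68.7 CPM, so the 3 groups gave no stable order. The ectoderm markers were at 439 CPM in WT (477 and 365 in the batches), 470 CPM in 3AKO (529 and 386) and 520 CPM in 3BKO (587 and 462). Of these 22 markers 10 were at 0 in 3BKO, against 4 in WT and 1 in 3AKO, so the 3BKO sum came from fewer of them. The extraembryonic endoderm markers were at 265, 205 and 66.1 CPM, of which 77.3%, 80.1% and 11.2% came from 1 cell each, and at 60.6, 41.2 and 60.3 CPM without these cells. The trophoblast markers were at 26.9 CPM in WT (33.9 and 13.6 in the batches), 69.03 CPM in 3AKO (95.5 and 31.8) and 31.7 CPM in 3BKO (36.1 and 27.9).

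The genes most like each member over the WT cells of day 9, among 6831 detected genes, were shared by Mfap2 and Nrep alone. Nrep and Limd2 (rho 0.61 and 0.52) and Lpar6 (0.53) were the likest genes to Mfap2, and Mfap2, Limd2 (0.58) and Mdk (0.56) to Nrep. Limd2 kept a rho of 0.44 and 0.57 to them in 3AKO. Like them, Limd2 was low in 3BKO, at 9.41 CPM against 157 CPM in WT, and so was Lpar6, at 4.26 against 49.5 CPM. For Fxyd2 they were Cd9 (0.54), a surface tetraspanin, Tfap2c (0.49), a transcription factor of trophoblast and germ cells, and Mrps6 (0.46), which had a rho of 0.36, 0.03 and 0.44 to it in 3BKO. For S100a6 they were Sec61b (0.42), Lgals1 (0.42), which codes for galectin-1, and Sept7 (0.35), of which Lgals1 alone had a rho above 0.3 in 3BKO (0.33). For Ccn1 they were Emp3 (0.43), the calcium-dependent phospholipid binder Anxa5 (0.43) and Fam168b (0.42), and Anxa5 had 0.35 in 3AKO. The values for Serpinf1 (Cnot4, Sox4 and Jkamp), Ptn (Sumf1, Tmem185b and Tmem59), Clu (Rint1, Synj2bp and Lman2l) and Fst (Pim2, Senp2 and Tcf7) lay between 0.37 and 0.41, and of these 12 only Pim2 kept a rho above 0.3 in 3AKO (0.33 to Fst). Leaving out the members, these were 24 genes, chosen by their rho in the same WT cells. In 3BKO against WT 1 was past the fold upward and 6 downward of 24 detected (2.86% and 4.98% of all detected genes), in 3AKO against WT 0 and 2 of 24 (1.07% and 1.59%), and in 3BKO against 3AKO 3 and 3 of 23 (4.56% and 4.91%). Between the days in WT 11 of 24 were past it upward (5.25% of all), a comparison that shares the WT cells in which they were chosen.

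Of 123 relatives and partners of the members in 9 lists, 49 were detected for 3BKO against WT, with 4 past the fold upward and 2 downward, beside 2.86% and 4.98% of all detected genes. For 3AKO against WT 46 were detected, with 2 upward and 0 downward, beside 1.07% and 1.59%. These counts are small, and nothing is read from them about the lists. Among the 13 FXYD and sodium-potassium pump genes, Atp1b1, the beta subunit that the pump needs to reach the membrane, was at 521 CPM in 3BKO and 96.0 CPM in WT (log2 ratio 2.43, with 1.89 and 2.69 in the batches). Fxyd6, the nearest relative with many reads, was past the fold upward between the days in WT (209 against 94.2 CPM).

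Among the 22 S100 genes and their partners, 9 were detected in each comparison at day 9. S100a1 was past the fold downward in 3BKO against WT (5.65 against 25.1 CPM), while S100a6 was not, and no gene of this list was past it in 3AKO against WT. S100a10, the S100 gene with the most reads of those named here, was level, at 167 CPM in WT, 173 CPM in 3AKO and 151 CPM in 3BKO. Cacybp, which codes for a S100A6-binding protein, was at 615, 807 and 797 CPM.

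Among the 14 genes for midkine and the pleiotrophin receptors, Mdk, the nearest relative of Ptn, was past the fold downward in 3BKO against WT (168 against 440 CPM, log2 ratio -1.38), and it was at 382 CPM in 3AKO. The receptor genes Sdc4 and Lrp1 of that list were past it upward in 3BKO (log2 ratios 1.66 and 1.17). Among the 15 CCN and YAP-TEAD genes, Ccn2 (CTGF), the nearest relative of Ccn1, was past the fold upward in 3AKO against WT (59.4 against 17.4 CPM, log2 ratio 1.72), as Ccn1 was in level. In 3BKO Ccn2 was at 23.01 CPM, with log2 ratios to WT of -0.01 and 0.72 in the batches, where Ccn1 had no read.

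Among the 15 genes of the follistatin family, activins and their receptors, 5 were detected for 3BKO against WT and 3 for 3AKO against WT. None of these was past the fold. Fstl1 was at 133 CPM in WT, 95.9 CPM in 3AKO and 50.8 CPM in 3BKO. Of the 9 relatives and receptors of PEDF, Plxdc1, a PEDF receptor gene, was past the fold upward in 3BKO (18.8 against 8.50 CPM) and Pnpla2, which codes for another, was not. None of the 17 microfibril and elastic fibre genes, the 9 TGF-beta ligand and receptor genes and the 9 clusterin receptor and chaperone genes was past the fold in either mutant against WT, and of these 3, 3 and 6 genes were detected for 3BKO. Mfap5, the other MAGP gene, stood at 1.75 CPM in WT, at 0 in 3AKO and at 2.81 CPM in 3BKO, far below Mfap2 in WT.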

How the data were processed

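The deposited table holds raw read counts per gene for 550 single cells, made by the authors with FastQC 0.11.2, Trim Galore 0.5.0, STAR 2.7.1a (mm10, GRCm38.p6) and featureCounts 1.6.1 on GENCODE gene names, without multimapped reads or molecular identifiers. No strand setting is given in the sources used here, and 26 columns of the table that match no sample were not used. GENCODE vM21, which holds 97.0% of the table's gene names, gave positions and exon lengths. The members and all lists were chosen with earlier results of these data known. Genes named beside the members were the 3 with the highest rho to each in WT day 9 cells (mitochondrial genes and unnamed gene models left out) and those past the fold in 6 marker lists (epiblast, meso-endoderm, ectoderm, extraembryonic endoderm, mesenchyme, trophoblast) and 9 family lists, with the nearest relatives.

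Reads were summed per group (19713905 to 34821361 reads) and set to CPM. Log2 ratios carry a pseudocount of 1 CPM. Intervals are 95% exact Poisson for reads and Clopper-Pearson for shares, and 3 counts stand for a count of 0. The design gives 1 sample a group, so no test was run. Alternatives to the cell filter, batch, scaling (TMM of edgeR 4.0.16, size factors of DESeq2 1.42.0), pseudocount, detection and thinning were run in Python 3.11.15 and R 4.3.3, and the ratio step was tested on simulated data. The values of 1 listed gene are not reported here.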

Additional observations from a re-analysis of the deposited data

Results flagged for a closer look

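Genotypes that lay on opposite sides in both library batches were looked at again. With 1 sample a group, none of these differences was tested. Against WT at day 9, Fxyd2 was at -2.06 in 3AKO and 2.04 in 3BKO on the log2 scale, so the effects lay 4.09 apart. Ptn was at 0.81 in 3AKO and -5.38 in 3BKO, a difference of -6.19, Fst at 1.35 and -3.80, a difference of -5.15, and Ccn1 at 2.06 and -4.50, a difference of -6.56. From day 3 to day 9, Ptn was at 3.74 in WT, 4.24 under the label 3AKO and -1.95 under the label 3BKO. The value under 3BKO thus lay at -5.69 from WT and at -6.19 from 3AKO. In WT the Ptn ratio was 4.29 in batch 1 and 0.39 in batch 2. Fst was at 2.00, 4.20 and -2.27, so the last lay at -4.27 from WT and at -6.47 from 3AKO. The day 3 values of the mutants include the batch 2 libraries whose labels are in doubt. The members were picked by their rise between the days, and the day 9 levels of WT and 3AKO entered the choice. All these distances are therefore descriptions, and nothing is read from them. The size of a fitted ratio for Ptn and Ccn1 in 3BKO, which had no read, depends on the pseudocount, and the bounds given with the levels do not.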

How the results depend on the processing

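Of 180 alternative values for the medians, gene counts, shares and rho, 153 stayed within the spread between the batches, the counting interval or 1.5 times the count, and 27 did not. For medians and rho the values of each batch alone are among these alternatives and also set the spread. The wider the batches lay apart, the more was allowed, so the total is no measure of stability. Of the alternative values of the members' own log2 ratios, 438 stayed within the width of the counting interval and 210 did not. No member ratio past the fold changed sign. At day 9, 23 of the 27 ratios of members between genotypes kept their sign under all 12 alternatives, and the others were those of Clu to WT in both mutants, Nrep in 3AKO and S100a6 in 3BKO.

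With a pseudocount of 10 CPM the median log2 ratio of day 9 to day 3 was 2.15 in WT, 2.04 in 3AKO and 0.39 in 3BKO, and the genes past the fold in these comparisons were 229, 164 and 566. For 3AKO and 3BKO against WT and 3BKO against 3AKO they were then 49, 304 and 370. With detection in 40% of cells the genes past the fold were 477 and 330 between the days in WT and 3AKO, and 95, 393 and 476 for the genotype comparisons in the same order. With detection in 10% they were 446 and 1106 for 3AKO and 3BKO against WT.

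Without the cell with the most reads of each gene the 3AKO day median was 3.07, and with the stricter cell filter (100000 reads, 4000 genes, 25% mitochondrial) the 3BKO day median was 1.18. In batch 2 alone the day medians were 1.94 in WT and 0.52 in 3BKO (0.27 in batch 1), and the genotype medians were 0.46 for 3AKO and -1.67 for 3BKO against WT. The median rho in batch 2 was 0.089, 0.086 and -0.085 in WT, 3AKO and 3BKO, and 0.083 in WT without thinning. The cause was not tested for any of these. A cell of 50000 reads does not show a gene far below 20 CPM with certainty, so a share of cells with a read is a lower limit. The bounds of Ptn and Ccn1, the sums of markers and the levels per kilobase by batch and without the leading cell were added after seeing the data, and stand with the levels.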

Other observations

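The cells that held the most reads of a member at day 9 differed in their other genes. A single WT cell led Mfap2 (1092 CPM), Ptn (1416 CPM) and Ccn1 (439 CPM) and also had 1090 CPM of Nrep and 503 CPM of Serpinf1. It held 547 CPM of Snai1, the transcription factor of epithelial-mesenchymal transition, and had 0 reads of Zfp42. This was the WT cell with the most Acta2 (209 CPM), Postn (150 CPM) and Col1a1 (135 CPM). It also held 314 CPM of Col4a2, from the extraembryonic endoderm list, and 155 CPM of Gata4, from the meso-endoderm list. A 3AKO cell led Mfap2 (669 CPM), Serpinf1 (382 CPM) and Nrep (322 CPM) by reads. It was the highest of 88 for Acta2 (6456 CPM), Lum (1078 CPM), Col3a1 (426 CPM) and Dcn (374 CPM), all typical of mesenchyme. The same cell was also the highest of 88 for Nnat (1796 CPM), from the ectoderm list. Another 3AKO cell led Ptn (1566 CPM) and Fst (1392 CPM) and held ectoderm markers, Nnat at 373 CPM, Crabp2 at 208 CPM and Fabp7 at 83.9 CPM.

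The cells that held most of the Clu reads were led by markers of different lists, meso-endoderm in WT and extraembryonic endoderm in 3AKO. The WT cell, with 18117 CPM of Clu, had the most Krt19 of 89 cells (4788 CPM) and 661 CPM of Sox17 and 243 CPM of Gata4. The 3AKO cell, with 16995 CPM of Clu, was the highest of 88 for Lamb1 (2719 CPM), Dab2 (2689 CPM), Lama1 (2249 CPM), Col4a1 (1866 CPM) and Krt18 (1900 CPM), and held 2192 CPM of Ccn1 and 1343 CPM of Fst. These are single cells picked for their reads of a member, and their values are descriptions.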
